A study of Mus musculus with 9 samples.

Results

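Innate intraepithelial lymphocytes are CD3- lymphoid cells that lie between the epithelial cells of the gut. The comparison described here set Ly49E+CD8aa+ cells against Ly49E+CD8aa- cells from the mouse small intestine, with 3 arrays in each population, and these were 6 of the 9 arrays of the series. The arrays were taken by their titles, so no measured value entered their choice. Both populations came from NOD-SCID mice aged 8 to 10 weeks, carried CD45, lacked CD3 and carried Ly49E, and were sorted to a purity above 98%. They differed in CD8aa, the homodimer of the CD8 alpha chain. The other 3 arrays held Ly49E-CD8aa+ cells from mice of the same strain and age. They entered the estimate of spread, and their levels are given beside some genes as a description. The scid mutation leaves the host without mature T and B cells, so the innate compartment was studied in a gut that lacks them. Per the labels the arrays of a population were biological replicates, but the number of mice pooled for each was not stated, and p-values measure the spread between these samples.

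Ly49E, encoded by Klra5, is a lectin-like receptor of the Ly49 family, most of whose members are NK cell receptors for MHC class I. CD8aa is carried by many lymphocytes of the gut epithelium, where it binds the thymus leukaemia antigen on enterocytes. Innate lymphocytes without antigen receptors include cytotoxic NK cells and the helper-like groups ILC1, ILC2 and ILC3, which are told apart by transcription factors, by cytokine receptors and by the cytokines they release. NK cells and many innate lymphocytes sense stressed cells through NKG2D and NKp46 and are sustained by IL-15 or IL-7.

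Each value was a log2 expression level from a single-channel Affymetrix Mouse Gene 1.0 ST array, normalized with RMA by the authors. A difference is the mean of Ly49E+CD8aa+ minus the mean of Ly49E+CD8aa-, on the log2 scale, so that 1 unit is a doubling. Where values of both populations follow each other, those of Ly49E+CD8aa+ come first. A gene is said to be called, or to be higher or lower, where limma gave a p below 0.05 after Benjamini-Hochberg adjustment over all 19938 genes tested. The array medians averaged 5.79, and levels near or below that value cannot be read as expression or as its lack, because no detection calls were used. Pearson correlations across genes, which are not independent replicates, ran from 0.9925 to 0.9941 among the CD8aa+ arrays, from 0.9932 to 0.9941 among the CD8aa- arrays and from 0.9859 to 0.9878 across the populations. In sorted cell pools, fewer cells of a type and less RNA per cell cannot be told apart, and this holds for every gene below.

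Transcripts of the sorted proteins followed the labels in part. Klra5 read 11.31, 11.51 and 11.38 against 11.42, 11.50 and 11.38, with overlapping arrays and a difference of -0.03 (SE 0.383). That SE includes the spread of the Ly49E-CD8aa+ arrays, where the SD of Klra5 was 0.982, against 0.103 and 0.0654 in the populations compared. Cd8a was higher in Ly49E+CD8aa+, with 12.51, 12.62 and 12.51 against 11.50, 11.25 and 11.49, but the CD8aa- arrays still lay far above the array median. Cd8b1, the CD8 beta chain that pairs with alpha on conventional CD8 T cells, went the other way, at 5.26, 5.31 and 5.27 against 8.54, 8.11 and 8.38. The signal of Cd8b1 was thus found in the cells sorted as negative for CD8aa. CD3 transcripts were present in cells sorted as CD3-. Cd3g read 12.93 ± 0.0189 against 12.72 ± 0.0198 (SD, n = 3 each) and was not called. Cd3e was higher by 1.05 (SE 0.19), and its Ly49E+CD8aa- arrays were uneven at 11.23, 10.51 and 10.35. Cd3d read 9.47, 10.34 and 9.72 against 9.62, 8.94 and 8.96, with overlapping arrays and a difference of 0.67, and was not called. Cd247, the zeta chain, differed by -0.04 and Ptprc, which encodes CD45, by 0.01, neither of them called. Itgae and Cxcr6, typical of lymphocytes in the gut epithelium, read 12.22 against 11.91 and 11.55 against 11.82.

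CD8aa divided Ly49E+ cells unevenly, since more genes were lower than higher in the cells with CD8aa, and by larger amounts. Of 19938 genes, 244 were lower (1.22%) and 95 higher (0.476%) in Ly49E+CD8aa+, together 339 (1.7%). These shares are the background for the counts of every gene list below. The lists were chosen with earlier results of these data known, so their counts are descriptions. Among the lower genes the median difference was -1.15, with 52 differing by at least 2 units and 25 by at least 3. Among the higher genes the median was 0.62, and Adh1 alone differed by at least 2 units. The median over all genes tested was 0.03. In all of the 339 called genes the arrays of the populations did not overlap, while they overlapped in 17359 of the 19938 genes tested. Of the lower genes, 80 lay above the mean array median in Ly49E+CD8aa- and below it in Ly49E+CD8aa+ and 31 lay below it in both. The higher genes lay mostly in the upper range, and 8 of 95 had a mean below the array median in Ly49E+CD8aa+. The median level of the 244 lower genes was 5.92 in Ly49E+CD8aa+, 7.53 in Ly49E+CD8aa- and 6.01 in Ly49E-CD8aa+. That of the 95 higher genes was 8.69, 8.05 and 8.78 in the same order. Without Ly49E+CD8aa+ replicate 2, Ly49E+CD8aa+ replicate 3 or Ly49E+CD8aa- replicate 3, the count of higher genes became 55, 58 and 55, and in the fit of the 6 arrays alone it was 62.

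**Figure D1:**
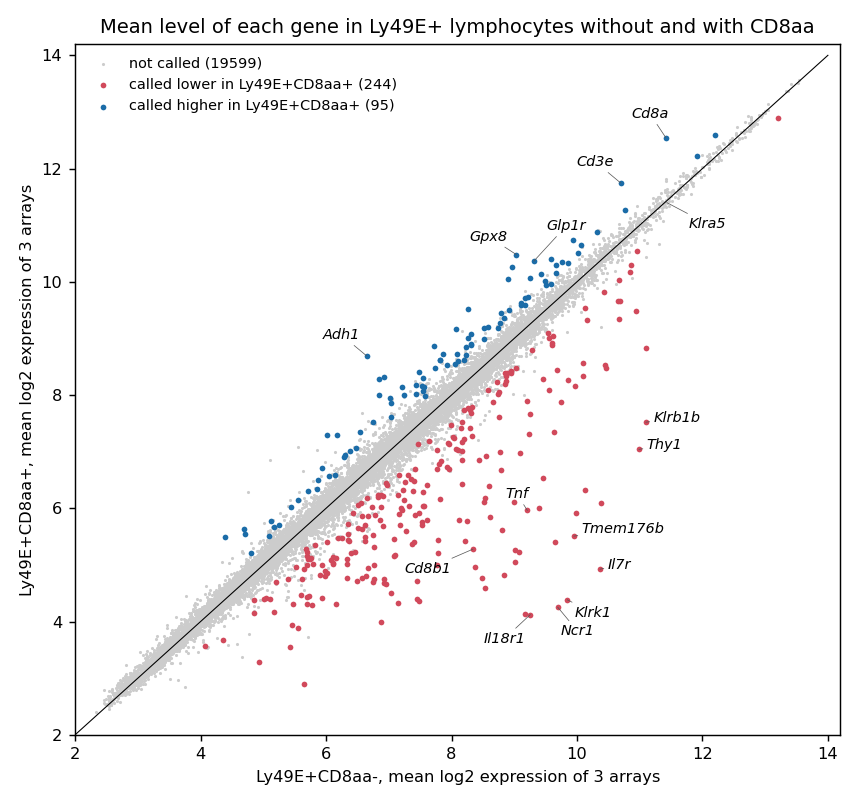
Mean log2 level of each gene over the 3 Ly49E+CD8aa- arrays (x axis) and the 3 Ly49E+CD8aa+ arrays (y axis). Red points mark the 244 genes called lower and blue points the 95 called higher in Ly49E+CD8aa+, and the diagonal marks equal levels. Red points reach much farther from the diagonal than blue ones, and Klra5 lies on it.

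Of 10 measured genes of the NKG2 and CD94 group, 8 were lower and none higher, with a median difference of -1.89. Klrk1 encodes NKG2D, which binds stress-induced ligands. It read 4.74, 4.33 and 4.09 against 9.82, 9.71 and 10.01, a difference of -5.46 (SE 0.163, limma adjusted p = 3.941e-07) from a level below the array median in the cells with CD8aa. Klrc1, the inhibitory NKG2A chain, read 4.12, 4.42 and 3.84 against 9.11, 9.16 and 9.26. Its partner Klrd1, which encodes CD94, read 8.55, 8.82 and 9.11 against 11.12, 11.13 and 11.05, so that CD94 transcripts stayed well above the array median where NKG2A transcripts did not. Klre1 (-4.01), Klrc3 (-2.75), Klrc2 (-1.51), Klri2 (-1.33) and Klrg1 (-1.09) were lower as well. The means of Klrc3, 2.89 against 5.65, lay below the array median in both populations. Those of Klrc2, 4.42 against 5.94, lay below and close to it. Klri1 differed by -0.47 and Klrh1 by 0.17, and neither was called. These lectin genes resemble one another, and Klr probes are open to cross-hybridisation. The call of Klrg1, a receptor for cadherins, was lost in 4 of 17 alternative settings, with an adjusted p of up to 0.0894.

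Upstream sequences of Klrk1 and Ncr1 are shown because these NK receptors were among the 3 genes that differed most. Each run is the 250 bases before the first listed RefSeq start of transcription, on the gene's own strand in GRCm38.p6. The run of Klrk1, with 1 promoter listed, is chr6:129623865-129624114 on the minus strand. That of Ncr1, with 2 listed, is chr7:4337465-4337714 on the plus strand. Capitals mark AGGTCA, the core motif of nuclear receptors.
Klrk1: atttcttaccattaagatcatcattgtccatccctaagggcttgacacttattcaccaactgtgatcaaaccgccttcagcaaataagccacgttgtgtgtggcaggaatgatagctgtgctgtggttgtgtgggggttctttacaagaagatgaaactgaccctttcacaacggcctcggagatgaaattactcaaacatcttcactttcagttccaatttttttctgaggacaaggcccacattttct
Ncr1: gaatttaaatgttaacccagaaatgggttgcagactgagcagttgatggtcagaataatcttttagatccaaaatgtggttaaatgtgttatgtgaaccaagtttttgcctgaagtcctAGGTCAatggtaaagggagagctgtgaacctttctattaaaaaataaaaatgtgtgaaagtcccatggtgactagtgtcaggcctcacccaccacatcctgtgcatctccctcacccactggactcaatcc
On both strands, these windows and those of Il7r, Tmem176a, Tmem176b and Adh1 were searched for TGANTCA (AP-1), AAAGGTCA (NR4A, which holds the core motif), GGANTTNCC (NF-kB), GGTGTGA (T-box) and AGGTCA. The core motif in Ncr1 was the only match among the 6 windows, and 12.2% of 15562 promoters of the same length hold that motif. A promoter was listed for 174 of the 244 lower and 74 of the 95 higher genes, under 80%, so a comparison of motif shares between these sets is void.

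NKp46 and its signalling partners were split. Ncr1, which encodes the activating receptor NKp46, read 4.65, 3.78 and 4.34 against 9.74, 9.60 and 9.74. Hcst, the DAP10 adaptor of NKG2D, read 10.10, 10.15 and 10.25 against 10.74, 10.99 and 10.79 and was lower by 1.60-fold, far less than Klrk1. Sh2d1a, the SAP adaptor of SLAM receptors, was lower by a difference of -2.88 (SE 0.314). Tyrobp (DAP12) and Fcer1g (the Fc receptor gamma chain), through which many NK receptors signal, differed by 0.11 and 0.14 and were not called. In all, 3 of 16 adaptor and Fc receptor genes were lower and none higher. The differences of these shared adaptors were small beside those of NKG2D and NKp46, which exceeded 5 units.

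Nkrp1 receptors, which bind Clr proteins, were lower in part. Klrb1b, an inhibitory Nkrp1 receptor, read 7.53, 7.51 and 7.53 against 11.15, 10.98 and 11.15. Klrb1f, a costimulatory one, was lower by a difference of -1.92 (SE 0.195), and Clec2i, a gene for a Clr protein, of -1.82 (SE 0.163). The other 7 of 10 measured genes were not called, among them Klrb1a at 0.14, Klrb1c, the NK1.1 gene, at -0.34 and Clec2d, which encodes the ligand of Klrb1b, at 0.13. Of 6 Ly49 genes with a row of their own, Klra8 (-1.66) and Klra6 (-0.71) were lower. Their mean levels were 3.89 against 5.55 and 4.14 against 4.85. All of these lay below the mean array median of 5.79, so they cannot be read as expression of these genes, and Klr probes are open to cross-hybridisation. The other 4 of the 6 were not called and differed by -0.96 to 0.00. Ly49 genes without a row of their own were not analysed here.

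**Figure D2:**
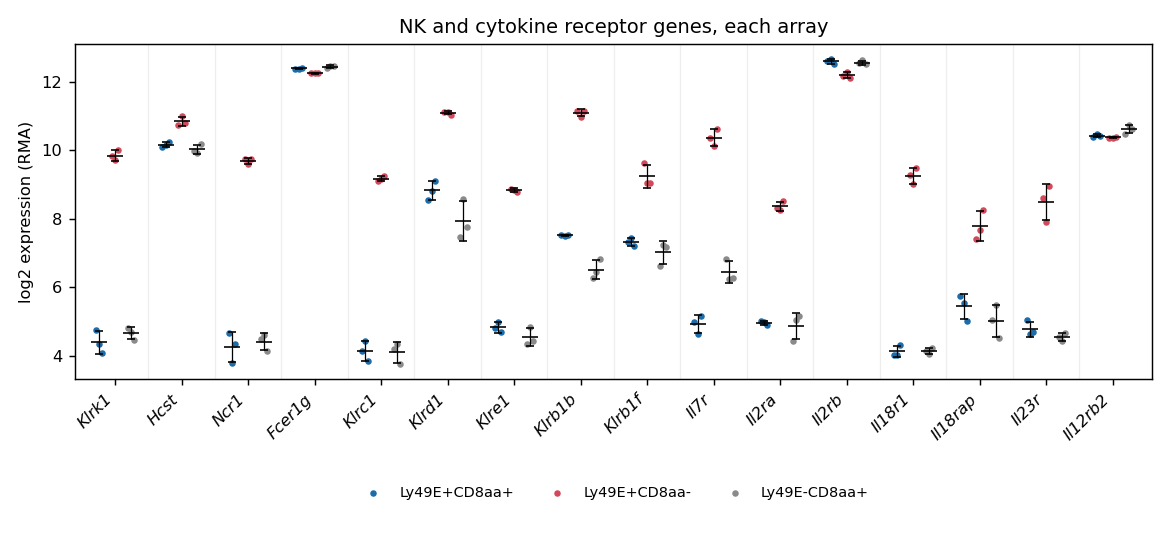
Log2 level of NK receptor, adaptor and cytokine receptor genes on each array of Ly49E+CD8aa+ (blue), Ly49E+CD8aa- (red) and Ly49E-CD8aa+ (grey), with mean and SD (n = 3). Red points of Klrk1, Ncr1, Klrc1, Il7r and Il18r1 lie on average 5 or more units above the blue ones, while Fcer1g, Il2rb and Il12rb2 differ little.

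Of 12 subunits of the common gamma chain receptors 2 were lower, 1 was higher and 9 were not called. The IL-7 receptor alpha chain gene Il7r read 4.97, 4.64 and 5.16 against 10.37, 10.12 and 10.61, and 6.45 ± 0.325 in Ly49E-CD8aa+. Il2ra, which gives the IL-2 receptor its high affinity, read 5.01, 4.99 and 4.89 against 8.32, 8.27 and 8.52. Il2rb, the chain shared by IL-2 and IL-15, went the other way, with 12.61, 12.66 and 12.53 against 12.18, 12.30 and 12.12. Il7r and Il2ra were thus lower, and Il2rb higher, in cells with CD8aa. The rise of Il2rb was 1.32-fold (limma adjusted p = 0.02482) and was lost in 6 of 17 alternatives. Il15ra (0.16), Il4ra (-0.29), Il21r (0.23) and Il9r (0.14) were not called. Upstream of Il7r, whose difference is among the 3 largest, stood this run at chr15:9529877-9530126 on the minus strand (GRCm38.p6, RefSeq), without a match to the motifs searched.
Il7r: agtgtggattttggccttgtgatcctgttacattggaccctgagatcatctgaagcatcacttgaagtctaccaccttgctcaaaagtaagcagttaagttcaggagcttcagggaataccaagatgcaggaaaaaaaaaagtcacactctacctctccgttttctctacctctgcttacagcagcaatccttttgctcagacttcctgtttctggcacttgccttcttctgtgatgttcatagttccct

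Receptors for IL-18 and IL-23 were lower and those for IL-12 were not called. Il18r1 read 4.03, 4.02 and 4.32 against 9.27, 9.01 and 9.49, and its partner Il18rap 5.74, 5.54 and 5.02 against 7.41, 7.69 and 8.27. Il23r, typical of ILC3, read 5.03, 4.62 and 4.68 against 8.61, 7.92 and 8.95. Il12rb2, the signalling chain for IL-12, read 10.43 ± 0.0425 against 10.38 ± 0.0245, and Il12rb1, shared by IL-12 and IL-23, differed by -0.26. Kit, the receptor for stem cell factor, was lower by 1.17 units, from 9.46 ± 0.111 in Ly49E+CD8aa- to 8.28 ± 0.0758. Ifngr1, a chain of the interferon gamma receptor, was lower at -0.60, a call lost in 10 of 17 alternatives. Over this list of 24 receptors, 5 were lower and 1, Tnfrsf9, was higher. Among the TGF-beta genes, Tgfbr1 (0.44) and Tgfbr2 (0.05) were not called, the signal transducer Smad3 (-1.25) and the corepressor Tgif1 (-1.31) were lower, and the coreceptor Tgfbr3 was higher (0.42, lost in 12 of 17 alternatives).

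Of 23 nectin-binding, CD2, SLAM and B7 receptor genes 8 were lower, 1 was higher and 14 were not called. Icos, the inducible costimulator, read 5.26, 5.02 and 5.39 against 9.15, 8.93 and 9.17. Its relatives Cd28 (-2.54) and Ctla4 (-1.83), and Cd2 (-2.58), Cd84 (-2.32) and Ly9 (-0.62), were lower too. Of the receptors for nectins, Crtam (-1.52) and Cd226 (-1.04) were lower, while Tigit (0.16) and Cd96 (0.14) were not called. Lag3, an inhibitory receptor for MHC class II, was higher by 0.48 (SE 0.0827). Of 27 genes of T cell receptor signalling 0 were lower, where 1.22% of all genes were. The 2 higher ones were Cd3e and Themis, a regulator of T cell receptor signal strength. Themis read 7.11, 7.26 and 7.52 against 6.63, 5.54 and 5.90, and 6.08 ± 0.207 in Ly49E-CD8aa+. The calls of Cd3e and Themis were each lost in 9 of 17 alternatives, with adjusted p of up to 0.136 and 0.154.

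Chemokine receptors were lower in 4 of 18 measured genes and higher in none, against 1.22% lower and 0.476% higher over all genes. Cxcr4, the receptor for CXCL12, read 7.08, 6.25 and 6.30 against 9.15, 10.01 and 9.23. Ccr9, which guides lymphocytes to the small intestine, read 8.60, 8.24 and 7.95 against 10.05, 9.64 and 9.88. Ccr2 (-2.17) and Cxcr3 (-0.82) were lower as well, the latter lost in 1 of 17 alternatives, without Ly49E+CD8aa+ replicate 2, where its adjusted p was 0.0507. Cxcr6, carried by tissue-resident lymphocytes, differed by -0.27 and was not called. Gpr183, which senses oxysterols and positions lymphocytes, was lower by a difference of -1.77 (SE 0.214). Cells with CD8aa thus had less transcript of these 4 chemokine receptors.

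Adhesion genes moved in both directions. The hyaluronan receptor gene Cd44 read 5.07, 4.80 and 5.12 against 7.79, 7.44 and 8.05. Itgal, the alpha chain of LFA-1, read 5.26, 5.48 and 5.52 against 8.37, 8.18 and 8.09, while its partner Itgb2 was higher, with 9.54, 9.66 and 9.57 against 9.18, 9.15 and 9.16. Icam2 (-1.19), a ligand of LFA-1, and Itgb3 (6.84 ± 0.0766 against 7.84 ± 0.103) were lower, and so was Itga4 (-0.79), a chain of the gut homing integrin. Itgae, the CD103 chain that binds E-cadherin on enterocytes, was higher by 0.31 (SE 0.0611, limma adjusted p = 0.04001). That call was lost in 13 of 17 alternatives, the call of Itga4 in 5 and that of Itgb2 in 1. Itgb7, the partner of both Itgae and Itga4, differed by -0.03 and Itga1 by 0.24, and neither was called. Of 22 adhesion genes, 5 were lower and 2 higher.

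Lineage transcription factors were lower in part. Eomes, the T-box factor of conventional NK cells, read 4.30, 4.53 and 4.12 against 6.57, 7.48 and 7.40. Its relative Tbx21, which encodes T-bet, read 8.64 ± 0.0549 against 8.96 ± 0.113 and was not called (limma adjusted p = 0.0871). Satb1, a chromatin organiser of lymphoid progenitors, was lower by 2.77 units (8.62 ± 0.48 to 5.85 ± 0.231), and Rora, a nuclear receptor needed for ILC2, by 2.11 (8.78 ± 0.0799 to 6.68 ± 0.213). Maf was lower as well (-0.75), and Gata3 (-0.51) and Irf4 (-0.69) were called with less margin, lost in 8 of 17 and 4 of 16 alternatives. Zbtb16, the PLZF gene of innate lymphoid progenitors, at 0.34, Tox at -0.03, Runx3 at -0.04 and Ahr at -0.38 were not called. Prdm1, which encodes Blimp-1, was higher, with 9.69, 9.85 and 9.65 against 9.34, 9.18 and 9.14, and its call was lost in 4 of 17 alternatives. Of 21 lineage factors 4 were lower and none higher, and of 15 T-box and effector factors 2 were lower and 1 was higher.

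Cytotoxic granule and chemokine genes gave 1 call. Gzma read 12.80, 12.84 and 12.91 against 12.74, 12.75 and 12.82, with overlapping arrays. Gzmb differed by 0.17 (SE 0.0616), Fasl by 0.12, Nkg7 by 0.15, Ccl5 by 0.09 and Xcl1 by -0.15, and none of these was called. Prf1, the perforin gene, was higher, with 9.56, 9.35 and 9.60 against 8.80, 9.01 and 8.94. It was the single call among 22 granzymes and cytotoxic effectors, partly open to cross-hybridisation, and was lost in 4 of 17 alternatives. None of 14 chemokine ligands was called. With 1.7% of all genes called, so few calls in lists of this size do not set these genes apart.

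Of 21 interleukins and other cytokines Csf2 was lower, Il13 was higher and 19 were not called. Csf2, which encodes GM-CSF, read 5.54, 5.03 and 5.19 against 9.18, 8.78 and 9.06, a difference of -3.75 (SE 0.177, limma adjusted p = 4.638e-06). Tnf read 6.05, 6.12 and 5.71 against 9.39, 8.78 and 9.45, and Ltb, the lymphotoxin beta chain that drives lymphoid tissue formation, 7.92, 7.97 and 7.72 against 9.64, 9.78 and 9.81. Tnfsf14, which encodes LIGHT, was lower by a difference of -1.51 (SE 0.174), and so was the receptor gene Tnfrsf26 (-2.73). Ifng read 6.25 ± 0.134 against 7.02 ± 0.413 and was not called, and Il17a differed by 0.08. Il13, a type 2 cytokine, was higher by 0.58 (SE 0.0853). Of 27 genes of the TNF superfamily 4 were lower and 1 higher. The higher one, Tnfrsf9, encodes the costimulatory receptor 4-1BB and read 10.20, 10.09 and 9.86 against 8.95, 9.11 and 8.66.

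Immediate early genes, which respond within minutes to stimulation and to cell handling, were lower in 7 of 36 and higher in none. Their median difference was -0.33, against 0.03 over all genes. Nr4a1, an orphan nuclear receptor induced by antigen receptor and stress signals, read 7.40, 7.45 and 7.20 against 9.85, 9.43 and 9.64. Gadd45b (-1.59), the phosphatase gene Dusp4 (-1.44), the RNA decay factors Zfp36 (9.65 ± 0.156 against 10.65 ± 0.122) and Zfp36l1 (-0.64), Ier5 (-0.56) and the AP-1 member Fosb (-1.45) were lower. Fos (-1.16) was not called, nor were Egr1 (0.02), Nr4a2 (0.28), Jun (-0.36) and Myc (-0.42). Fosb was uneven in Ly49E+CD8aa+ at 8.71, 7.97 and 7.60, and its call was lost in 7 of 17 alternatives. The NF-kB inhibitor genes Nfkbia (8.83, 8.12 and 8.39 against 9.88, 9.68 and 9.51) and Nfkbid (-0.91), and the signalling adaptor Traf1 (-0.54), were lower, 3 of 16 genes of that list. None of 15 calcium and NFAT genes was called, which is common for a list of that size at 1.7% over all genes. The summed level of the immediate early list, as log2 of the sum of linear values, was 14.43 to 14.58 against 14.74 to 14.86. The part of cell handling in these differences was not tested.

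**Figure D3:**
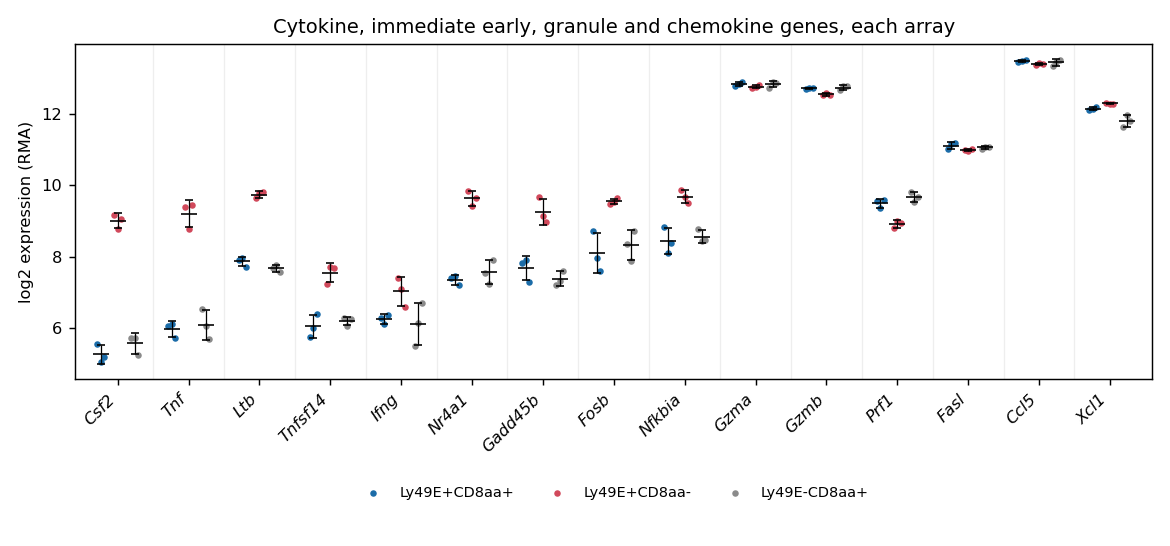
Log2 level of cytokine, immediate early, granule and chemokine genes on each array of Ly49E+CD8aa+ (blue), Ly49E+CD8aa- (red) and Ly49E-CD8aa+ (grey), with mean and SD (n = 3). Csf2, Tnf, Ltb and Nr4a1 are higher in red on every array, while the points of Gzma, Gzmb, Fasl and Ccl5 lie close together.

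Membrane and calcium-binding proteins included several of the largest differences. Tmem176b read 5.74, 5.22 and 5.56 against 9.97, 9.83 and 10.06, and Tmem176a 5.74, 5.28 and 5.22 against 9.95, 9.32 and 9.66. These ion channel-like proteins are known from ILC3 and dendritic cells. Ms4a4b, a tetraspan-like protein of T cells, read 4.89, 4.27 and 4.61 against 8.61, 8.58 and 8.40. Thy1, the surface marker CD90 of T cells and innate lymphoid cells, read 7.30, 7.34 and 6.48 against 11.16, 11.12 and 10.68. RefSeq lists 2 promoters for Tmem176a and 3 for Tmem176b, and the first of each was used. These starts lie 346 bases apart on chromosome 6 and point away from each other, so their upstream windows share 155 bases. The window of Tmem176a, which was lower together with its neighbour, is printed with those shared bases in capitals (GRCm38.p6, RefSeq, chr6:48841233-48841482, plus strand).
Tmem176a: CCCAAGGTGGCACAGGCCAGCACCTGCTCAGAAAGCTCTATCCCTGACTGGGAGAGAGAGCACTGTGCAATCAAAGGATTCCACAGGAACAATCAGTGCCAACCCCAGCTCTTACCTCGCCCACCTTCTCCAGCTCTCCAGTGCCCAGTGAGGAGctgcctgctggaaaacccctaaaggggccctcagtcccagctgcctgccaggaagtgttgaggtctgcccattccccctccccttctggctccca

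In the list of S100, annexin and galectin genes 6 of 25 were lower and none higher. S100a4, a calcium-binding protein of motile cells, read 5.58, 4.75 and 4.81 against 9.07, 8.92 and 9.03, and S100a6 was lower by a difference of -1.76 (SE 0.216). Lgals1, which encodes galectin 1, read 6.16, 5.92 and 6.89 against 10.30, 9.91 and 10.17, and lay between them in Ly49E-CD8aa+ at 8.42 ± 0.513. Anxa6 (-0.61), Anxa2 (-0.49) and Anxa5 (-0.44) were lower by small amounts, and the calls of Anxa6 and Anxa5 were each lost in 5 of 17 alternatives. Lgals3 (0.05) and S100a10 (-0.12) were not called. Anxa1 was uneven in Ly49E+CD8aa-, at 3.98, 3.93 and 6.07, and was not called.

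The 25 largest differences also included genes outside the groups above. Pram1, an adaptor described in myeloid cells, read 6.10, 5.94 and 6.23 against 10.65, 9.82 and 10.66. Upp1, a uridine phosphorylase that splits uridine for reuse, read 6.08, 5.72 and 5.95 against 10.13, 9.72 and 10.11. Serpinb1a, an inhibitor of neutrophil proteases, differed by -3.19 (SE 0.335), the fatty acid transport protein gene Slc27a6 by -3.11 (SE 0.437) and Ctla2a, a cathepsin inhibitor with a close copy that may share its probes, by -3.05 (SE 0.138). These genes were all lower.

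Receptors for metabolites and lipid mediators were lower in 5 of 32 measured genes, Gpr183 among them, and higher in 1. Ffar2, which senses short-chain fatty acids from gut bacteria, read 5.86, 5.63 and 5.85 against 8.31, 8.10 and 8.32. Ltb4r1, the leukotriene B4 receptor, read 6.09, 6.03 and 6.23 against 8.64, 7.72 and 9.19, and the proton-sensing Gpr132 was lower by a difference of -2.35 (SE 0.197). Cysltr1 (-1.29), the cysteinyl leukotriene receptor, lost its call in 6 of 16 alternatives. Glp1r, the receptor for the gut hormone GLP-1, was the higher one, with 10.36, 10.41 and 10.32 against 9.33, 9.36 and 9.25. Transcripts of the GLP-1 receptor lay close together within each population and doubled between them (2.08-fold, limma adjusted p = 2.146e-05).

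Of the clock, retinoid and Notch lists 17.6%, 10.3% and 15% of genes were called, against 1.7% over all genes. Nr1d1, the REV-ERB alpha repressor of the circadian clock, read 6.25, 5.95 and 5.82 against 9.66, 8.87 and 9.66. Its close relative Nr1d2 differed by 0.01, and Arntl (-0.44), Per1 (-0.14), Per2 (0.08) and Dbp (0.14) were not called. Per3 was higher by 0.50 (SE 0.0851), lost in 5 of 17 alternatives, so of 17 clock genes 2 were lower (Nr1d1 and Rora) and 1 higher. The retinoic acid receptor gene Rara was lower by 1.15 units (SE 0.105), and the retinal reductase Dhrs3 by 0.85 in a call lost in 9 of 17 alternatives. Of 20 Notch genes, the ligand Jag1 (-0.55) and the nuclear mediator Rbpj (-0.59) were lower and the target Heyl (0.61) higher. Another row of Rbpj, dimmer, went the other way. Jag1 was lost in 4 of 16 and Rbpj in 7 of 17 alternatives.

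The genes higher in Ly49E+CD8aa+ were led by an enzyme. Adh1, an alcohol dehydrogenase that can oxidise retinol, read 8.57, 8.71 and 8.79 against 6.59, 6.78 and 6.57, a 4.13-fold difference (limma adjusted p = 3.821e-06). In Ly49E-CD8aa+ it was at 7.87 ± 0.119. As the largest rise, it is shown with its upstream run, which matched no motif searched (chr3:138277335-138277584, plus strand, GRCm38.p6, RefSeq).
Adh1: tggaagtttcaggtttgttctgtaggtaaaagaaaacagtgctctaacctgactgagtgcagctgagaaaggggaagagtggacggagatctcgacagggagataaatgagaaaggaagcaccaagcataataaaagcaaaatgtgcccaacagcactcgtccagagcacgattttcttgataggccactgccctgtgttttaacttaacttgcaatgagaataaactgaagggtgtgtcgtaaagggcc
Gpx8, a glutathione peroxidase of the endoplasmic reticulum, read 10.46, 10.44 and 10.54 against 9.24, 8.92 and 8.94. Rnf180, a ubiquitin ligase, read 8.28 ± 0.0213 against 6.84 ± 0.226. Ptpn5, a tyrosine phosphatase known from neurons, read 9.67, 9.44 and 9.44 against 8.39, 8.16 and 8.23. Each of these was at least 1 unit higher on average, and each kept its call in all 17 alternatives.

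Further rises were Cela1, a pancreatic-type elastase (1.38), Pdzk1, a scaffold of epithelial transporters (1.30), Arfgef3 (1.15), the actin-severing protein gene Scin (1.09), the serine protease genes Htra3 (0.94) and Htra1 (0.87), the transcription factor Zfhx3 (0.92), the aromatic amino acid decarboxylase Ddc (0.83), the carboxypeptidase Cpd (0.82), the guanine exchange factor Rasgrf1 (0.81) and Cd200r2, a member of the CD200 receptor family (0.81). Entpd1, the CD39 enzyme that degrades extracellular ATP, was higher by 0.57, with 10.93, 10.91 and 10.80 against 10.28, 10.36 and 10.31. The phosphatase Ptprj (0.48), the fatty acid elongase Elovl5 (0.50), the desaturase Scd2 (0.66) and the haem synthesis enzyme Alas2 (0.58) were higher too. Of the 39 higher genes named by the rules used, 17 kept their call in every alternative, against 74 of 91 lower genes. The calls of Scd2 (10 of 17), Elovl5 and Ptprj (6 of 17 each), Alas2 (5 of 16), Ddc and Htra3 (4 of 17 each), Entpd1 (3 of 17), Cela1 and Htra1 (1 of 17 each) were lost in some alternatives. Islr (7 of 17), Spats2 (7 of 17) and Epb41l4a (5 of 16) lost theirs as well.

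**Figure D4:**
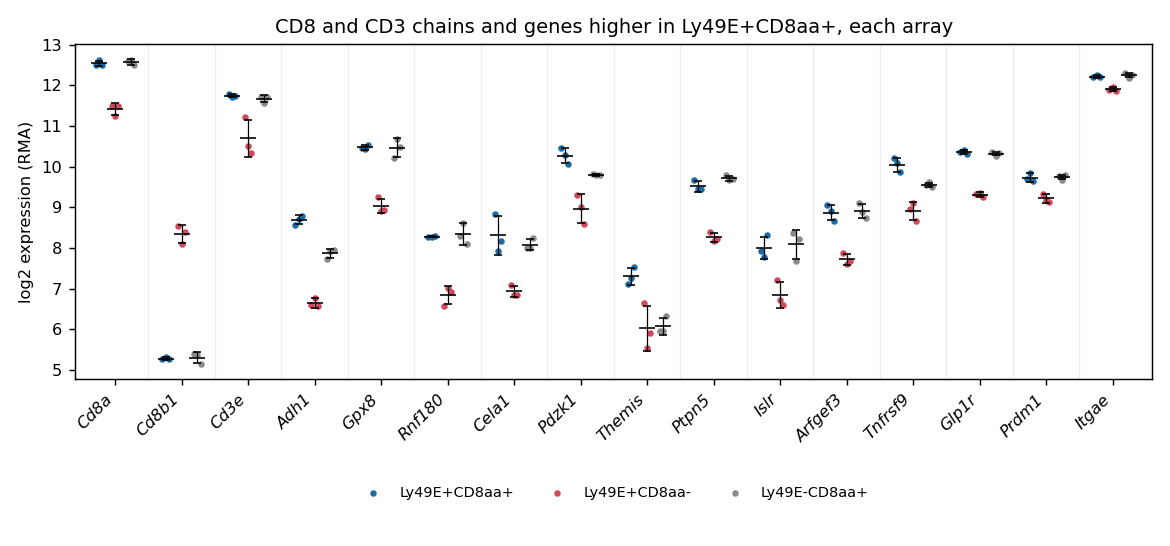
Log2 level of Cd8b1 and of genes higher in Ly49E+CD8aa+, Cd8a and Cd3e among them, on each array of Ly49E+CD8aa+ (blue), Ly49E+CD8aa- (red) and Ly49E-CD8aa+ (grey), with mean and SD (n = 3). For the genes drawn, the mean of the blue points lies above that of the red ones by 0.31 (Itgae) to 2.05 (Adh1), except for Cd8b1, which runs the other way.

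Several called genes were neighbours in the genome. In the RefSeq order of tested genes, 29 of 243 lower genes with a position (11.9%) had an adjacent tested gene that was also lower, against 2.38% of all 19852 tested genes with a position. The longest run was on chromosome 6, where Klre1, Klrd1, Klrk1, Klrc3, Klrc2 and Klrc1 followed each other, all of them lower. Cd28, Ctla4 and Icos formed a run of 3 on chromosome 1, where Il18r1 and Il18rap were neighbours too. Pairs on chromosome 6 were Tmem176b and Tmem176a, Klrb1b and Clec2i, and Klra6 and Klra8. Ltb and Tnf were a pair on chromosome 17 and Hcst and Nfkbid on chromosome 7. The remaining pairs were Tab2 and Ust on chromosome 10, Icam2 and Ern1 on chromosome 11, and, on chromosome 3, 4933431E20Rik with Gstm5 and Fnbp1l with Pde5a. Among the higher genes, 6 of 95 (6.3%) had a higher neighbour, against 0.952% of all, including Il2rb beside C1qtnf6 and Tnfrsf9 beside Per3. Families of similar genes lie side by side and can share probe sequence, and the part of shared probes in these runs was not tested.

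Many gene groups carried no call, which short lists often do where 1.7% of all genes were called. None of 31 cell cycle and replication genes, 23 glycolysis and hypoxia genes, 19 Bcl2 family genes, 8 Gimap genes, 10 genes of the aryl hydrocarbon receptor pathway and 15 metallothionein and zinc transporter genes passed the test in either direction. Mki67 differed by -0.12, Ldha by 0.05, Bcl2 by 0.30 and Mcl1 by -0.02. Of 26 interferon-stimulated genes only Ifitm3 was called. It read 5.26, 5.32 and 4.88 against 6.79, 7.27 and 7.18, and 7.07 ± 0.602 in Ly49E-CD8aa+. With 3 arrays a population and a median SE of 0.0976 units, a gene that missed the threshold is not shown to be equal.

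**Figure D5:**
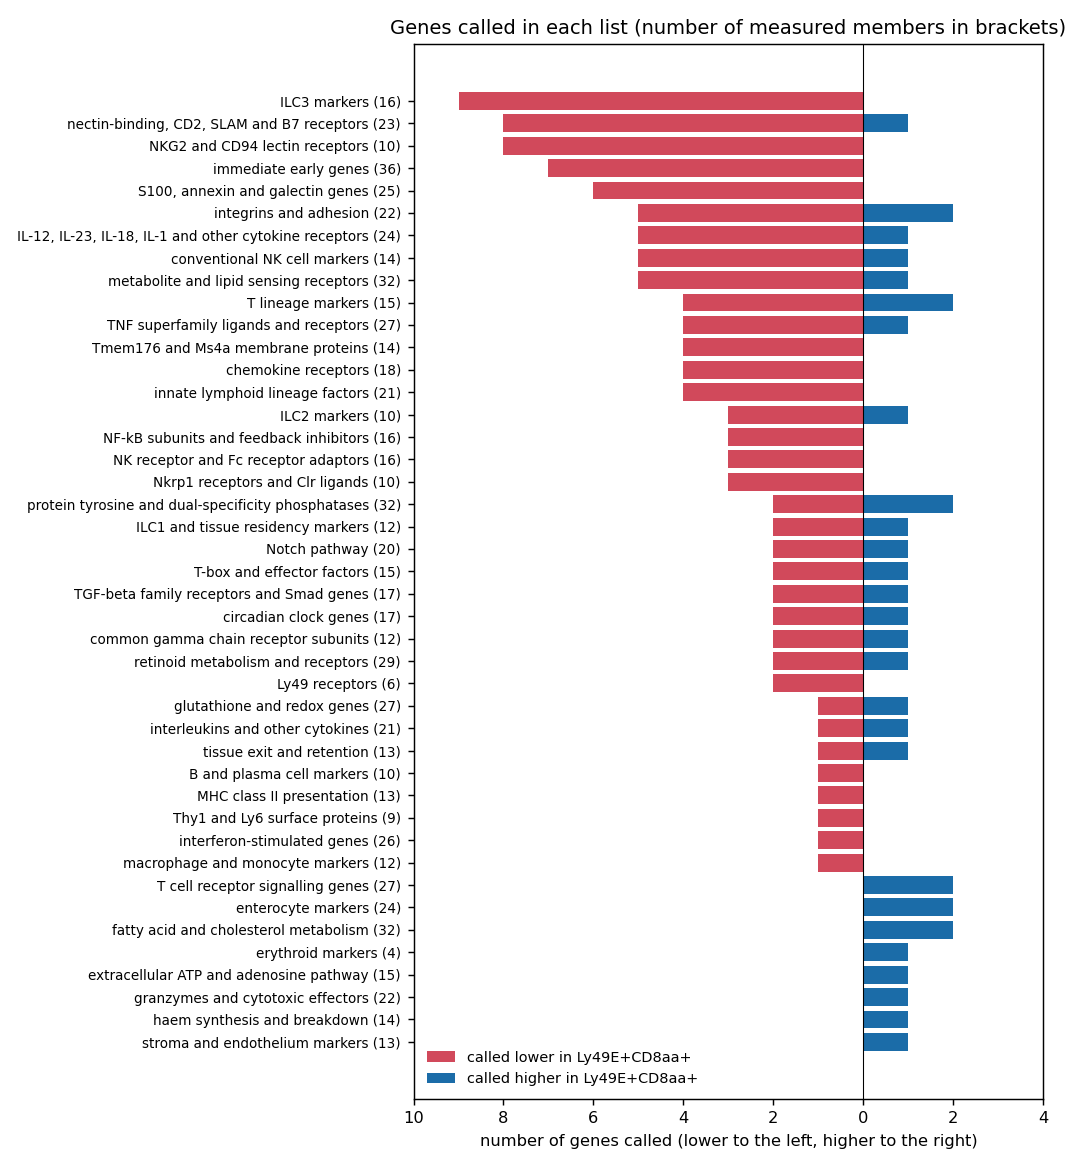
Number of genes called lower (red, to the left) and higher (blue, to the right) in Ly49E+CD8aa+ for each gene list with at least 1 call, with the number of measured members in brackets. Lists of ILC3 markers, NKG2 and CD94 receptors and costimulatory receptors hold the most lower genes, with 9, 8 and 8. Over all genes tested, 1.22% were called lower and 0.476% higher.

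Markers of innate lymphocyte groups were read from lists that share genes with those above. Over all genes, 1.22% were lower and 0.476% higher. Of 16 ILC3 markers 9 were lower and none higher, with a median of -0.97, and their summed level was 10.57 to 10.67 against 12.59 to 12.84. The 9 included Il7r, Tmem176b, Tmem176a, Il23r, Ffar2, Rora, Ltb and Kit, while Il17a and Ahr were not called. Of 14 markers of conventional NK cells 5 were lower (Klrk1, Ncr1, Eomes, Klra8 and Klrg1) and 1, Prf1, was higher. Klra8 lay below the mean array median in both populations. Summed levels of this list were 13.15 to 13.21 and 13.32 to 13.41. Of 12 ILC1 and residency markers 2 were lower and 1 was higher, and of 10 ILC2 markers 3 were lower and 1 was higher. Of 15 T lineage markers 4 were lower, Thy1, Cd8b1, Cd2 and Cd28, and 2 were higher, with summed levels of 13.72 to 13.76 and 13.57 to 13.81 that overlapped. The part of a different mix of cell types in the sorted pools was not tested.

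Markers of other cells were checked in the same way. Of 24 enterocyte markers 2 were higher, Cela1 and Pdzk1, and the summed level was 13.32 to 13.91 against 12.95 to 13.83, with overlap. The other 22 enterocyte markers were not called and differed by -0.28 to 0.50, among them Vil1 (-0.03), Fabp1 (0.02), Apoa1 (0.01) and Alpi (-0.06). Some lay far above the array median in both populations, with means of 11.20 against 11.20 for Apoa1 and 10.88 against 10.68 for Apoa4. Of 13 MHC class II genes, partly open to cross-hybridisation, H2-Aa was lower by 1.08 units, a call lost in 5 of 17 alternatives. The summed level of that list was 10.37 to 10.58 against 10.86 to 10.92, and 10.75 to 11.07 in Ly49E-CD8aa+. Dendritic cell markers summed to 11.04 to 11.15 against 11.18 to 11.35 with 0 of 15 called, and macrophage markers to 9.35 to 9.46 against 9.21 to 9.35 with 1 of 12 lower, Ccr2. The other 11 macrophage markers were not called and differed by -0.04 to 0.78. Among them Adgre1, Csf1r and C1qa lay below the array median in both populations and differed by 0.00, -0.01 and 0.01. Of 10 B and plasma cell markers Sdc1 was lower, of 13 stroma and endothelium markers Islr was higher and of 4 erythroid markers Alas2, calls lost in 8 of 16, 7 of 17 and 5 of 16 alternatives, while secretory epithelium and mast cell or granulocyte lists held no call. The part of these other cells in the differences was not tested.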

How the data were processed

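Total RNA of 3 sorted populations was hybridised to 9 single-channel arrays, with amplification by the Ovation Pico WTA V2 kit per the labels. The authors deposited log2 expression values made with RMA, per the submitters' processing notes, for 35556 rows. No label or header names the RMA version, genome build or annotation. Values of 1.84 to 13.84 fit a log2 scale.

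From these values, rows were named by the platform annotation. In all, 21789 rows had 1 symbol, 1621 had several and 12146 were not listed. A gene with several rows was read from the one whose mean of all 9 arrays was highest, which left 19938 genes, 999 of them with more than 1 row. Differences were fitted in limma 3.58.1 (R 4.3.3) with a mean per population, all 9 arrays sharing 1 spread, moderated with eBayes, without a filter, two-sided, adjusted by Benjamini-Hochberg. The number of arrays limits the precision. The fit was tested on simulated data. Named genes were the sort markers, the 25 largest calls each way (without predicted genes, receptors for odours, antigen receptor segments and small RNAs), up to 6 calls per list and further list members given with their values. The comparison and the lists were chosen with earlier results of these data known. Promoter sequences and gene order came from RefSeq tables of GRCm38.p6. Of the 15562 tested genes with a promoter, 2628 had more than 1 listed, and the first was used.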

Additional observations from a re-analysis of the deposited data

How the results depend on the processing

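Stability was followed for 130 calls, those of the sort markers, the 25 largest each way and up to 6 per list. In 17 alternatives their direction was kept, and 91 of the 130 stayed past the threshold in all that could be run. Other calls given in the text, such as Lag3, Ly9, Cd226, Klri2 and Ier5, were not followed in this way. The 244 lower genes became 179 with a filter at the median of row means, 191 in the fit of the 6 arrays alone, 237 with the mean of a gene's rows, 236 with arrays centred on their medians, 254 with a filter at the 25th percentile, 256 with an intensity trend and robust moderation, 262 after quantile normalization, and 184 to 234 with 1 array left out. The 95 higher genes became 62 in the fit of the 6 arrays alone, of which 54 were among the 95, and 55 to 87 with 1 array left out. Under the other settings they numbered 87 to 106. The populations share replicate numbers, but the deviations of same-numbered arrays correlated at 0.1722, 0.024 and 0.0491, so the numbers were not taken to pair the samples. In a fit with the replicate block, 261 genes were lower and 113 higher, and 225 and 84 of these were among the 244 and 95. Of all genes, 1880 had an unadjusted p below 0.05. Arrays carry no read depth, and signal near background limits the lower genes, 111 of which had a mean below the array median in Ly49E+CD8aa+.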

Other observations

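The genes below lie outside the lists and were chosen after their values were seen. They were not tested as groups. The actin-binding protein gene Tagln2 read 8.61, 8.30 and 8.66 in Ly49E+CD8aa+ against 10.49, 10.47 and 10.38 in Ly49E+CD8aa-. Gmfg, a regulator of actin branching, differed by -1.98 (SE 0.174), the tropomyosin gene Tpm4 by -1.80 (SE 0.182), Vcl, which encodes vinculin, by -0.64 (SE 0.115) and Tmsb10, a thymosin that binds actin monomers, by -0.31 (SE 0.0598). Scin, which severs actin filaments, was higher. A dimmer second row of Gmfg differed by -0.15.

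Other lower genes were the adaptor Sh3kbp1 (-2.89, SE 0.197), the lipase gene Mgll, which degrades an endocannabinoid (-2.02, SE 0.0908), the hypoxia-inducible factor gene Epas1 (-1.78, SE 0.139), the selenium carrier Selenop (-1.45, SE 0.153) and the growth factor receptor gene Igf1r (-1.38, SE 0.146). Iltifb, a copy of the IL-22 gene that may share its probes, read 2.98, 3.33 and 3.57 against 5.21, 4.85 and 4.75. The inflammasome genes Casp4 (-0.84) and Nlrp1a (-0.65) were lower too. Among the higher genes were the phosphoinositide 3-kinase genes Pik3cb (0.62, SE 0.096) and Pik3cd (0.52, SE 0.0911), the granule membrane protein gene Cd63 (0.58, SE 0.074) and Sytl2, which docks secretory granules (0.49, SE 0.0751). Each of these calls was limma's, adjusted over 19938 genes. Apart from Scin, the genes of this section were not followed through the alternative settings, so the stability of their calls is not known.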
